A study of Homo sapiens with 2 samples.

Results

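The aminoacyl-tRNA synthetases are the enzymes that join each amino acid to its transfer RNA. Their genes were taken by symbol from the table of genes. The rule took 1 letter followed by ARS, with or without a final digit, and added FARSA, FARSB, EPRS, TARSL2, PSTK, AIMP1 and AIMP2. It found 41 of the 19607 genes in the table. Of these, 21 encode cytosolic enzymes, 17 encode mitochondrial enzymes, AIMP1 and AIMP2 encode scaffold proteins, and PSTK encodes a kinase that acts on a charged transfer RNA. The final digit marked the mitochondrial enzymes, with the exception of TARSL2, a threonyl-tRNA synthetase that works in the cytosol.

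RNA was sequenced from Akt1/2 DKO cells of the line CWR22rv1 and from control cells, with 1 library of each. CWR22rv1 is a human prostate cancer cell line, and both libraries came from cells kept in RPMI medium with foetal bovine serum. The DKO library is labelled Akt1/2 knockout, and the control library is labelled wild type. The knockout cells received Cas9 plasmids against AKT1 and AKT2 together with a puromycin plasmid, and were grown out as monoclonal cells. The labels do not name the clone that was sequenced, nor do they say whether the control cells were cloned or passed through puromycin. A difference between the libraries that comes from the loss of Akt1/2 and one that comes from the choice of 1 clone therefore cannot be told apart.

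Each synthetase activates its amino acid with ATP and transfers it to the matching transfer RNA, which carries it to the ribosome. The enzymes belong to a pair of unrelated classes, named class I and class II after the fold of their catalytic domain. Cytosol and mitochondrion mostly use separate nuclear genes for this step, but GARS and KARS each encode the enzyme of both compartments. Several cytosolic synthetases sit together on the scaffold proteins in the multi-synthetase complex. The kinase GCN2 (gene EIF2AK4) senses transfer RNA that lacks its amino acid and phosphorylates the initiation factor eIF2. The transcription factor ATF4 is then translated, and its known targets include cytosolic synthetase genes, amino acid transporters and enzymes of serine and asparagine synthesis.

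ATF4 binds DNA together with C/EBP proteins at the C/EBP-ATF response element, whose core was searched as TGATGNAA on both strands. The promoter windows came from RefSeq (GRCh38.p14). Each runs from 250 bases before a transcription start to 50 bases after it, and a gene with several starts has several windows. Of the 41 genes, 33 had a window. AARS2, DARS, LARS, TARSL2, VARS, VARS2 and YARS were among those that had none. The matches to this core are printed because it was held by a larger share of the cytosolic than of the mitochondrial genes, though most cytosolic genes with a window lacked it. Each line gives 1 match 5′ to 3′ on the strand of the gene, with the core in capitals. Where the core lies on the other strand, its reverse complement is read. The position is that of the first capital relative to the transcription start, which is 0.
AARS (chr16:70289675-70289704, minus strand, position -187): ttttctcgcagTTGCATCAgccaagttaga
CARS (chr11:3057407-3057436, minus strand, position -2): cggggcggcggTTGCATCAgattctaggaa
GARS (chr7:30594834-30594863, plus strand, position -33): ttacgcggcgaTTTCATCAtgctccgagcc
IARS (chr9:92293692-92293721, minus strand, position -13): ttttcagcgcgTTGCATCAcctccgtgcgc
MARS (chr12:57488053-57488082, plus strand, position -4): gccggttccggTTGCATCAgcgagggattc
NARS (chr18:57621804-57621833, minus strand, position 14): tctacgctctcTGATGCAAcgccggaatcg
TARS (chr5:33440956-33440985, plus strand, position 2): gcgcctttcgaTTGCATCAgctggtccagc
YARS2 (chr12:32756076-32756105, minus strand, position -197): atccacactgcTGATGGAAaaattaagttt
ASNS, for comparison (chr7:97872458-97872487, minus strand, position -68): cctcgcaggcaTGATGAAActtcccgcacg
ATF3, for comparison (chr1:212565205-212565234, plus strand, position -191): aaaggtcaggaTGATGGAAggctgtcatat

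The core was present in 7 of 16 cytosolic genes with a window (43.8%) and in 1 of 14 mitochondrial genes (7.14%). It was present in 4.46% of the 27305 genes with a RefSeq promoter window, and in 2.71% of those with at least 10 reads here. All cytosolic matches but that in GARS held TTGCATCA or its reverse complement, and 5 of them lay at positions -13 to 14. Counting only matches that end before the start left 3 of 16 cytosolic genes (18.8%). The E-box CACGTG, which is read by MYC, was present in 1 of 16 cytosolic and 3 of 14 mitochondrial genes and in 8.77% of all genes with a window. GCGCATGC, the core of the NRF1 motif, was present in 0 of 16 cytosolic and 2 of 14 mitochondrial genes and in 3.68% of all. Among genes with at least 10 reads here, the E-box was present in 12.6% and the NRF1 core in 6.28%. A match is a description of the letters and not a measured binding site.

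The libraries held 9970815 (control) and 10718634 (DKO) reads on genes, and after trimmed mean of M-values (TMM) scaling the DKO library counted as 1.11 times the size of the control library. AKT1 had 2645 reads in control and 591 in DKO cells, and was 4.96-fold lower (95% counting interval 4.54 to 5.43). AKT2 had 2362 and 667 reads and was 3.93-fold lower (3.60 to 4.28). Of 10 prostate luminal markers, 4 were at least 1.5-fold higher in the DKO library and 4 at least 1.5-fold lower, among them KLK3 (184 and 29 reads) and KRT8 (6408 and 12815 reads). KRT5 and TP63 of the basal list had 0 reads in both libraries, and the endothelial list had 1 and 2 reads in all. The 6 fibroblast markers summed to 104 and 22.1 CPM (reads scaled to the library total), or 1035 and 237 reads. VIM held 897 and 84 of these reads, which is most of the sum in the control library only. Among the 4 fibroblast markers with enough reads, 2 were at least 1.5-fold higher and 2 at least 1.5-fold lower. The leukocyte list summed to 5.11 and 6.44 CPM, nearly all of it CD68. The part of these marker differences in the results below was not tested.

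Levels were compared between genes in FPKM, which divides by transcript length. In the control library the cytosolic enzymes had a median of 94.2 FPKM and ranged from TARSL2 at 2.69 to QARS at 208. QARS, which charges glutamine, was followed by MARS (methionine) at 191, NARS (asparagine) at 139, GARS (glycine) at 132 and IARS (isoleucine) at 124. In the DKO library the cytosolic median was 108 FPKM. GARS led at 182, ahead of QARS at 174, MARS at 156, IARS at 148 and EPRS (glutamate and proline) at 144. The same 4 genes GARS, QARS, MARS and IARS were thus among the highest 5 in both libraries, with NARS in the control library and EPRS in the DKO library as the fifth.

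The mitochondrial enzymes had a median of 22.8 FPKM in the control library and 22.7 in the DKO library. The ratio of the cytosolic to the mitochondrial median was 4.13 and 4.75. IARS2 stood apart from the other mitochondrial enzymes, at 92.4 FPKM in the control library and 106 in the DKO library. LARS2 (leucine) was next in the control library at 42.1 FPKM and had 22.7 in the DKO library. The lowest were WARS2 (tryptophan) at 6.04 and 7.21 FPKM and PARS2 (proline) at 6.75 and 7.54. PSTK, which phosphorylates serine on the selenocysteine transfer RNA, had 1.38 and 1.03 FPKM. The scaffold genes lay at the level of cytosolic enzymes, AIMP2 at 89.9 and 120 FPKM and AIMP1 at 40.5 and 76.7. In both libraries, 11 of the 21 cytosolic genes lay above every mitochondrial gene.

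**Figure D1:**
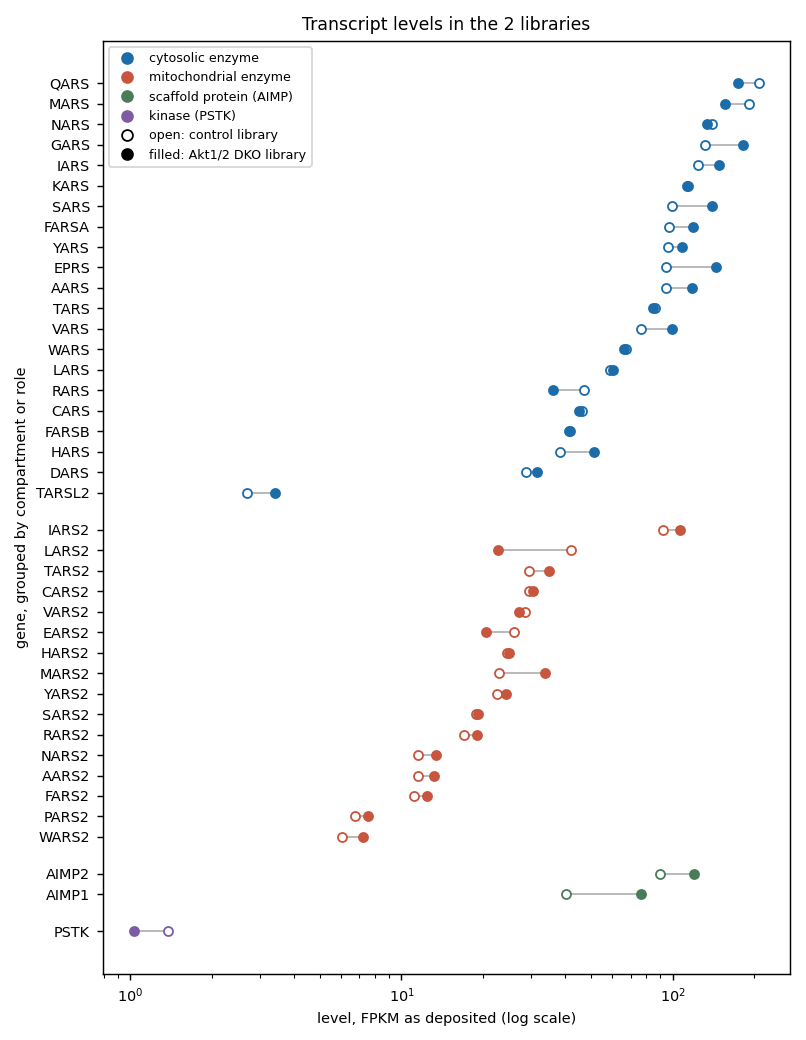
Level of 40 of the 41 genes in FPKM on a log axis, with an open circle for the control library and a filled circle for the Akt1/2 DKO library, grouped by compartment or role and ordered by the control level. Most cytosolic enzymes lie to the right of the mitochondrial ones in both libraries, with TARSL2 (2.69 and 3.42 FPKM) and IARS2 (92.4 and 106 FPKM) as the exceptions that stand out.

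Next, the libraries were compared gene by gene. All 41 genes passed the minimum of 10 reads over both libraries and were compared. None was 1.5-fold higher in the DKO library, and LARS2 alone was at least 1.5-fold lower, which is 1 of 41 (2.44%). Over all 13318 genes with at least 10 reads, 30.9% were past 1.5-fold in one direction or the other, 15.9% higher and 15% lower. Well-measured genes move less by counting error, so the same was done for genes with at least 100 reads. There, 1 of 40 synthetase genes (2.5%) was past 1.5-fold, beside 23.2% of all such genes. Of the 41 genes, 38 lay within 0.5 on the log2 scale of no change (92.7%, beside 64.5% of all genes). With at least 100 reads the shares were 92.5% of the synthetase genes and 72% of all such genes. There was 1 library per condition, so these folds have no replicate check and no test, and the intervals, which are exact 95% Clopper-Pearson intervals of the read share, cover counting error only. Fewer cells with a transcript and less of it per cell cannot be told apart in such libraries.

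The highest fold was that of EPRS (ENSG00000136628, chromosome 1, 219968601 to 220046658), a single protein that charges both glutamate and proline transfer RNA. It had 4688 reads in control and 7618 in DKO cells, a fold of 1.47 (1.41 to 1.52), just under the 1.5-fold line. Its log2 fold of 0.55 was 0.60 under total count and under upper-quartile scaling and 0.61 by the authors' FPKM, each past that line. SARS, which charges serine and also starts the selenocysteine route, had 1846 and 2781 reads and was at 1.36-fold (1.28 to 1.44). FARSA, the catalytic subunit for phenylalanine, had 1674 and 2322 reads and was at 1.25-fold (1.17 to 1.33), while its partner subunit FARSB had 1403 and 1521 reads and was at 0.978-fold (0.909 to 1.05). GARS had 3494 and 4817 reads and a log2 difference of 0.31 (0.25 to 0.38). HARS, VARS, AARS, YARS and IARS were at 1.17- to 1.24-fold, each with its counting interval above 1. The cytosolic genes on the higher side thus lay close together below EPRS and SARS.

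On the lower side, RARS, which charges arginine, had 1017 reads in control and 836 in DKO cells and was 1.35-fold lower, with a log2 difference of -0.43 (-0.57 to -0.30). NARS had 3286 and 3001 reads and a log2 difference of -0.28 (-0.35 to -0.21). QARS had 2545 and 2373 reads and a log2 difference of -0.25 (-0.33 to -0.17). The 8 genes DARS, MARS, KARS, LARS, FARSB, TARS, CARS and WARS were at 0.941- to 1.01-fold, and each interval included no change. TARSL2, with 78 and 106 reads, was at 1.23-fold (0.906 to 1.66), which at this depth is no detectable difference. Taken as a sum, the 21 cytosolic genes held 46179 and 57092 reads, a fold of 1.12 (1.10 to 1.13). Without EPRS the sum was at 1.08-fold (1.06 to 1.09).

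Among the mitochondrial enzymes, LARS2 (ENSG00000011376, chromosome 3, 45388506 to 45549421), which charges leucine in mitochondria, was the one gene past 1.5-fold. It had 1743 reads in control and 998 in DKO cells and was 1.94-fold lower, a log2 difference of -0.95 (-1.07 to -0.84). EARS2 had 1023 and 853 reads and was 1.33-fold lower. It places glutamate on the mitochondrial glutamate and glutamine transfer RNAs, and the latter is then amidated. VARS2 (valine) had 869 and 770 reads and was 1.25-fold lower. MARS2, whose product supplies the methionine that is formylated to start mitochondrial protein synthesis, had 692 and 1103 reads and was the highest of the group at 1.44-fold (1.31 to 1.58). A further 12 mitochondrial genes were at 0.939- to 1.16-fold. Together the 17 genes held 13242 and 14558 reads, a fold of 0.992 (0.968 to 1.02), and 1.06 (1.04 to 1.09) without LARS2.

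The counting interval left out no change in 21 of the 41 genes, 15 on the higher and 6 on the lower side, beside 59.2% of all genes tested. These 21 include genes with large read numbers and small folds. IARS2, for example, had 3303 and 4085 reads and was at 1.12-fold (1.07 to 1.17). PSTK, with 15 reads in each library, was at 0.902-fold (0.411 to 1.98), and no difference was detectable at this depth.

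**Figure D2:**
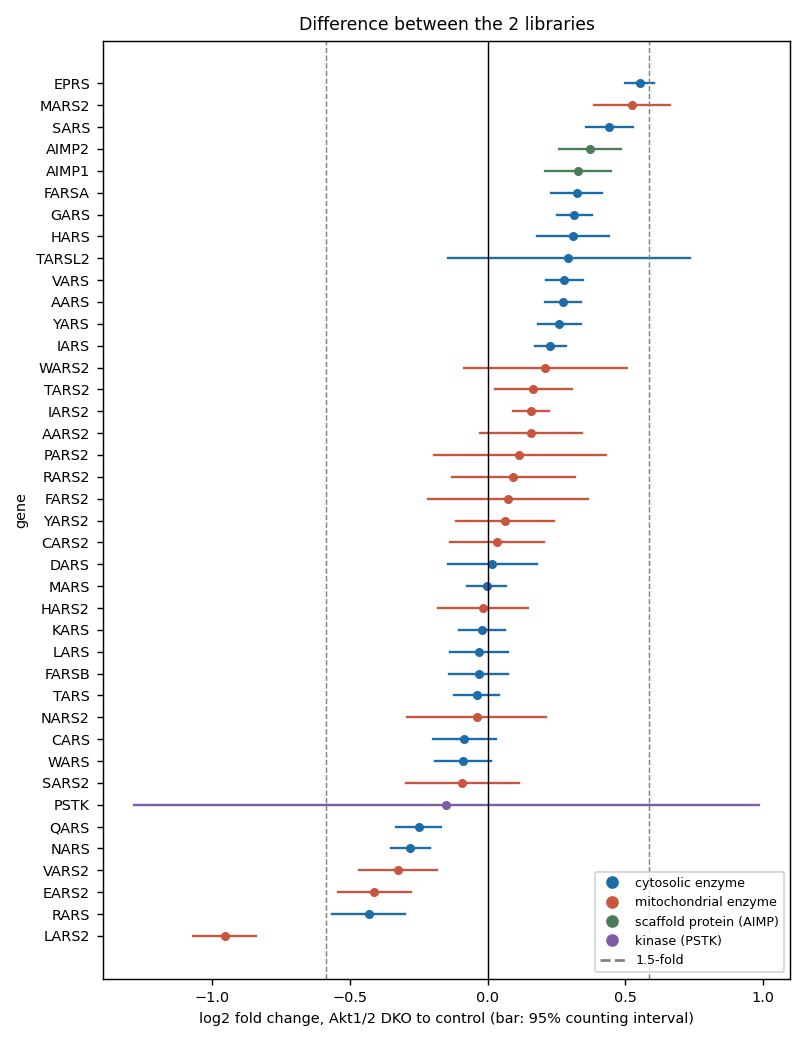
Log2 fold change of 40 of the 41 genes, Akt1/2 DKO to control, each with its 95% counting interval as a bar (reads after TMM scaling, 1 library per condition), coloured by compartment or role, and dashed lines at 1.5-fold. LARS2 at -0.95 is the one gene outside the lines, and EPRS at 0.55 is the gene nearest to the upper line.

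The cytosolic and the mitochondrial enzymes were then contrasted. The median log2 fold was 0.02 over the 21 cytosolic genes, 0.07 over the 17 mitochondrial genes and 0.01 over all genes tested, and the cytosolic median minus the mitochondrial one was -0.06. This difference was 0.04 without the genes on chromosome 3, so its sign rests on them. The read-weighted sums lay in the other order, at 1.12-fold and 0.992-fold, since EPRS, GARS and IARS hold many reads and LARS2 is among the larger mitochondrial genes. Within the cytosolic group the 9 class I genes had a median of 0.979-fold and the 11 class II genes of 1.21-fold, with EPRS, which holds a domain of each class, counted in neither. The 9 class I and 8 class II mitochondrial genes had medians of 1.04- and 1.07-fold. The groups overlapped in each of these contrasts.

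For 17 amino acids the cytosolic gene has a mitochondrial counterpart, and the ratio of the read numbers of the pair needs no scaling between libraries. FARSA was taken for phenylalanine and TARS for threonine, and ratios with FARSB or TARSL2 were not computed. By FPKM the cytosolic gene was above its counterpart in both libraries in each of the 16 pairs reported one by one here. The highest ratio was that of EPRS to PARS2, at 13.97 and 19.1.

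From control to DKO, the read ratio of the pair was higher with an interval above 1 in 7 pairs, lower with an interval below 1 in 4 pairs, and the interval included 1 in 6 pairs. The median was 1.08. By reads, 3 pairs were past 1.5-fold, all of them higher. The ratio of EPRS to EARS2 was 1.95-fold higher (1.77 to 2.15), with the cytosolic gene higher and the mitochondrial gene lower. LARS to LARS2 was 1.89-fold higher (1.70 to 2.11) through LARS2, since LARS was at 0.979-fold. VARS to VARS2 was 1.52-fold higher (1.36 to 1.69). In the opposite direction, MARS to MARS2 was 1.44-fold lower (1.29 to 1.61) with MARS itself at 0.998-fold, and RARS to RARS2 was 1.44-fold lower (1.20 to 1.72). By the authors' FPKM, the log2 change of VARS to VARS2 was 0.46, under the 1.5-fold line. That of MARS to MARS2 was -0.86 by FPKM, past 1.5-fold on the lower side. The pairs thus moved in both directions, and glutamate and proline share the cytosolic gene EPRS, so their ratios are not separate measurements.

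**Figure D3:**
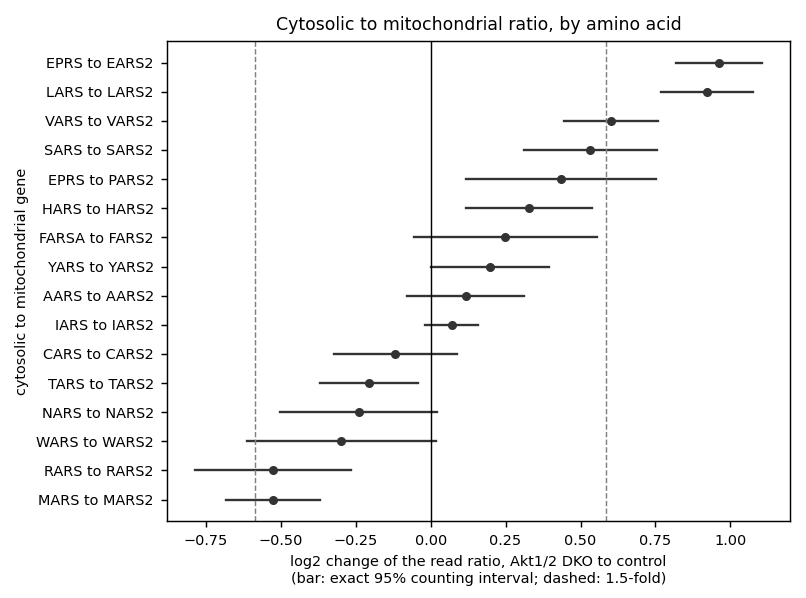
Log2 change, control to Akt1/2 DKO, of the read ratio of the cytosolic to the mitochondrial gene of 16 amino acids, with exact 95% counting intervals as bars and dashed lines at 1.5-fold. EPRS to EARS2 (0.96), LARS to LARS2 (0.92) and VARS to VARS2 (0.60) lie past the upper line, and none lies past the lower one.

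In the multi-synthetase complex, 8 cytosolic genes (EPRS, IARS, LARS, QARS, MARS, RARS, KARS and DARS) are held by AIMP1, AIMP2 and EEF1E1. None of the 11 was past 1.5-fold. AIMP2 had 1090 reads in control and 1564 in DKO cells and was at 1.29-fold (1.20 to 1.40). AIMP1 had 963 and 1341 reads and was at 1.26-fold (1.16 to 1.37). EEF1E1, the third scaffold protein, had 247 and 256 reads and was at 0.935-fold (0.782 to 1.12). The 8 enzyme genes had a median of 0.992-fold, with EPRS at 1.47 and RARS at 0.741 at its ends, and the 13 cytosolic genes outside the complex had a median of 1.21-fold. Subunits of 1 complex thus spanned the whole range of the cytosolic genes.

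The authors' FPKM and the reads gave different folds for some genes. The log2 folds by FPKM and by reads scaled to the library total differed by more than 0.2 in 5 of 41 genes (12.2%, beside 16.8% of 13124 genes). AIMP1 had the largest gap, with a log2 fold of 0.33 by reads after TMM scaling and 0.92 by FPKM. MARS had -0.30 by FPKM, from 191 to 156, where the reads gave 0.998-fold. VARS2, at -0.32 by reads after TMM scaling, was at -0.07 by FPKM. PSTK and NARS2 were the rest of the 5. NARS, at -0.28 by reads after TMM scaling and -0.06 by FPKM, was not among them. Its gap to reads scaled to the library total was 0.17. By FPKM, 3 genes were past 1.5-fold, namely EPRS (1.53-fold), AIMP1 and LARS2. Of the exon bases of AIMP1, 387 are overlapped by TBCK on the opposite strand. Of those of MARS, 519 are overlapped by ARHGAP9 and 355 by DDIT3, both on the opposite strand. HARS and HARS2, which lie head to head, overlap by 437 bases, and AIMP2 and EIF2AK1 by 532. Whether the library kept the strand is not stated, so reads from such stretches cannot be assigned to a gene with certainty. Another gene annotated on the same strand covers 1492 exon bases of SARS2 and GTF2H4 covers 1858 of VARS2, and the values of both are uncertain for that reason.

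The genome position of the genes was set beside their folds, because chromosome 3 was lower as a whole in the DKO library. Of 754 tested genes on it, 639 had a fold below 1, the median log2 difference was -0.54, and 55.4% were past 1.5-fold in either direction, while the median elsewhere was 0.03. LARS2 and QARS are the synthetase genes on this chromosome. For LARS2 at -0.95, the 20 nearest expressed genes had a median of -0.61. For QARS (chromosome 3, 49095932 to 49105135) at -0.25, they had a median of -0.54, so QARS was lower than in control but less so than its neighbours. Without these genes, 0 of 39 were past 1.5-fold and the cytosolic median was at 1.09-fold. The part of this chromosome-wide difference in the LARS2 value was not tested.

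EPRS and IARS2 lie close to each other on chromosome 1, on opposite strands. Their 20 nearest expressed genes had a median log2 difference of 0.32, with EPRS at 0.55 and IARS2 at 0.16. GARS at 0.31 had a neighbour median of 0.33. HARS at 0.31 had neighbours at 0.29, IARS at 0.23 had them at 0.22, and NARS at -0.28 had them at -0.25. For some other genes the neighbours lay near no change. MARS2 was at 0.52 beside -0.03, SARS at 0.44 beside 0.07, RARS at -0.43 beside 0.03 and EARS2 at -0.41 beside -0.12. YARS at 0.26 had neighbours at -0.32.

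**Figure D4:**
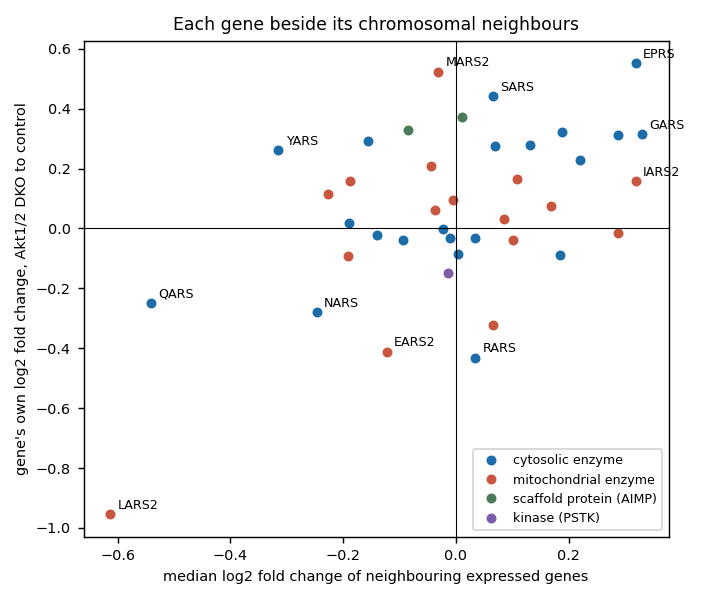
Log2 fold change of 40 of the 41 genes, Akt1/2 DKO to control, each against the median of its 20 nearest expressed genes, 10 on each side (10 in all for TARSL2, near a chromosome end), coloured by compartment or role. LARS2 (-0.95 beside -0.61) and QARS (-0.25 beside -0.54), both on chromosome 3, lie to the left of all other genes, and MARS2 and SARS lie high with neighbours near 0.

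Genes linked to ATF4 were described from a list of 32. Of these, 10 were at least 1.5-fold higher and 0 at least 1.5-fold lower, with a median log2 difference of 0.40. The share past 1.5-fold in either direction was 31.2%, near the 30.9% of all genes. The list differed in direction, with all 10 on the higher side, where 15.9% of all genes were higher and 15% lower. The counting interval lay above 1 in 25 of the 32 and below 1 in 2, SLC38A2 (0.814-fold) and NUPR1 (0.841-fold). ATF3, a transcription factor of stress responses, had 143 reads in control and 586 in DKO cells and was 3.70-fold higher (3.07 to 4.47). STC2, a secreted glycoprotein, had 317 and 744 reads and was 2.12-fold higher (1.85 to 2.42). SLC7A5, which imports leucine and other large amino acids, had 2129 and 4786 reads and was 2.03-fold higher (1.93 to 2.13), and its partner SLC3A2 was 1.67-fold higher. PHGDH and PSPH of serine synthesis were 2.01- and 1.91-fold higher. DDIT3, TRIB3, CEBPB and PPP1R15A were 1.64- to 1.97-fold higher. Asparagine synthetase, ASNS, was under the line at 1.39-fold (1.33 to 1.46), and ATF4 itself had 7815 and 9944 reads and was at 1.15-fold (1.11 to 1.18). DDIT3 overlaps MARS, as given above.

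Over the same libraries the cytosolic synthetases had a median of 1.01-fold with 0 of 21 past 1.5-fold. The 7 cytosolic genes with the core printed above had a median of 0.998-fold, and the 9 with a window and no core had 0.986-fold. Of the 7, GARS, AARS and IARS were at 1.24-, 1.21- and 1.17-fold, MARS, TARS and CARS at 0.998-, 0.973- and 0.943-fold, and NARS at 0.824-fold. The core was also present in 6 of 24 genes of the ATF4 list with a window (25%). They were ATF3, SLC3A2 and ASNS at 3.70-, 1.67- and 1.39-fold, SLC7A1 and CEBPG at 1.24- and 1.18-fold, and CHAC1 at 0.993-fold. The ATF4-linked list therefore held genes past 1.5-fold that the cytosolic synthetases did not, and the difference was not tested.

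Upstream of ATF4, the list of eIF2 kinases and their regulators had 1 of 9 genes past 1.5-fold. This was IMPACT, an inhibitor of GCN2, with 520 reads in control and 361 in DKO cells (1.60-fold lower, 1.39 to 1.83). EIF2AK4, the GCN2 gene, had 1015 and 1042 reads and was at 0.926-fold (0.848 to 1.01), and its coactivator GCN1 was at 0.986-fold (0.945 to 1.03). WARS is also known as an interferon-gamma target. It had 1529 and 1595 reads and was at 0.941-fold (0.877 to 1.01). Of 9 interferon-gamma genes, 5 had enough reads, with PSMB9 (2 and 12 reads) higher and CIITA (29 and 17 reads) lower past 1.5-fold.

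The steps before and after charging were described in the same way, beside 30.9% of all genes past 1.5-fold. Transfer RNA genes are transcribed by RNA polymerase III. Among 21 of its subunits and factors, GTF3A, the factor of the small ribosomal RNA gene that this polymerase reads (1041 and 1775 reads, 1.54-fold), and POLR3C (299 and 522 reads, 1.57-fold) were higher and 0 were lower (9.52%). Of 17 genes of transfer RNA maturation and export, 4 were past 1.5-fold (23.5%), a share near the 23.2% of all genes with at least 100 reads. RPP25 and RPP40, both subunits of ribonuclease P, were 1.51- and 1.53-fold higher. POP1, another subunit of it, was 1.75-fold lower with 803 and 509 reads, and TRNT1, which adds the CCA end, was 1.64-fold lower with 362 and 244 reads. XPOT, the exporter of transfer RNA from the nucleus, was at 1.19-fold (1.14 to 1.24).

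Elongation factor 1, which takes the charged transfer RNA to the cytosolic ribosome, had 0 of 5 genes past 1.5-fold, from EEF1D at 0.787-fold to EEF1B2 at 1.26-fold. The 4 genes that remove misplaced or mirror-image amino acids from transfer RNA also had 0, with DTD1 at 0.708-fold and AARSD1 at 1.38-fold as the extremes. Of 13 genes of mitochondrial transfer RNA use, GFM1 (1710 and 1143 reads, 1.66-fold lower) and TRNT1 were lower, and both lie on chromosome 3. Of 7 genes of the selenocysteine route, EEFSEC (508 and 372 reads, 1.51-fold lower) was lower and lies on the same chromosome. The ribosomal protein genes, the other large part of the translation machinery, were 2 of 83 past 1.5-fold for the cytosol (2.41%, RPS27L and RPL29, both lower) and 6 of 78 for the mitochondrion (7.69%, MRPL34 higher and MRPL1, MRPL22, MRPS25, MRPL37 and MRPS22 lower). Their medians were 0.998- and 1.05-fold. RPL29 and 2 of the 5 lower mitochondrial ribosomal protein genes lie on chromosome 3. The synthetases, at 1 of 41, and both sets of ribosomal protein genes were each below the 30.9% of all genes. Each was also below the 23.2% of genes with at least 100 reads, the closer comparison for genes read this deeply.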

How the data were processed

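RNA of 1 Akt1/2 DKO and 1 control library of CWR22rv1 cells was sequenced. Per gene, the authors deposited an estimated count without normalization and an FPKM value for each library. The submitters' processing notes name fastp 0.20.0, TopHat, Cufflinks, edgeR and the build GRCh38.p10, with no role or order, and which tool counted the reads is not given in the sources used here. Columns with the authors' own fold changes, p-values and false discovery rates were not used.

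Estimated counts were rounded to the nearest whole read (5 of the 41 genes had fractional values). A gene needed 10 reads over both libraries, which 13318 genes had, and the libraries were scaled by TMM (edgeR 4.0.16, R 4.3.3). The fold is the ratio of scaled reads, Akt1/2 DKO to control, with an exact 95% Clopper-Pearson interval, and a pair of genes was compared by the conditional odds ratio (scipy 1.17.1). Both intervals cover counting error only, and 3 reads are 0.301 CPM in the control and 0.28 CPM in the DKO library. As each condition has 1 library, there was no test, and called means past 1.5-fold, the threshold of the study. The calculation was tested on simulated data with counting error only and few changed genes, balanced in direction. That setting does not cover variation between cultures or a shift as wide as that of chromosome 3. Batch and condition cannot be told apart.

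The genes, the lists and the alternatives were chosen with earlier results of these data known, and the lists were written from general knowledge. Every synthetase gene has a value in the comparison and enters the counts and medians, but some single results are not reported here. The text names AKT1, AKT2, each synthetase gene past 1.5-fold, those with the highest and lowest levels, parts of the multi-synthetase complex, partners of an amino acid pair, and genes on chromosome 3. From the other lists it names genes past 1.5-fold and genes a list is named for. Other genes, such as the subunits, markers and stress genes named beyond these, were chosen after their values were seen. GENCODE release 29 (GRCh38) gave the positions and held 19571 of the 19607 gene identifiers. Promoters were matched by current symbol. The alternatives were total count, upper-quartile and DESeq2 1.42.0 size factor scaling, the FPKM of the authors, 3 further filters on reads, a threshold of 2-fold, the counting interval as the rule, leaving out chromosome 3, leaving out GARS and KARS, and promoters upstream of the start only.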

Additional observations from a re-analysis of the deposited data

How the results depend on the processing

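No paired analysis was possible because there is a single library of each kind. No value past 1.5-fold changed sign. Values near no change did: FARSB, HARS2, KARS, LARS, MARS, NARS2 and TARS were below 0 (log2) in the main analysis and above 0 under total count and upper-quartile scaling, at values up to 0.05. By the authors' FPKM, FARSB, HARS2, KARS, LARS, SARS2 and NARS2 (0.23) were also above 0. The cytosolic minus mitochondrial median was -0.06 and became 0.04 without chromosome 3. Of the values of single genes and pairs, 10 moved by more than their counting error (all by the authors' FPKM) and 171 did not. Under DESeq2 size factors, the counts computed stayed within 1.5 times the main count and the medians and single genes within their error, as did the counts and medians with a filter of 1 read and the medians without GARS and KARS. Under total count and under upper-quartile scaling EPRS passed 1.5-fold, so that 2 of the 41 genes, 1 cytosolic gene and 1 gene of the multi-synthetase complex were called, and 0 genes of the selenocysteine route. By the authors' FPKM, 3 of the 41 genes, 1 cytosolic gene, 2 genes of the complex, 1 of mitochondrial transfer RNA use and 0 of the selenocysteine route were called, the cytosolic median was 0.13 (log2) and AKT1 was at -2.66. The cause of these shifts was not tested. Of the interferon-gamma genes, 1 was called with at least 10 reads in each library and 0 with at least 50 reads in both together, since fewer genes were tested.

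A 2-fold threshold, by its construction, left 0 of the 41 genes (0 mitochondrial), 4 genes linked to ATF4, 1 interferon-gamma gene and 2391 of all genes. It left 0 for the eIF2 kinases, transfer RNA maturation, RNA polymerase III, mitochondrial transfer RNA use, the selenocysteine route and both sets of ribosomal proteins. The counting interval as the rule called 21 of the 41 genes (12 cytosolic, 7 mitochondrial), 6 of the complex, 27 linked to ATF4, 4 of the eIF2 list, 5 of elongation factor 1, 2 of proofreading, 9 of maturation, 9 of polymerase III, 5 of mitochondrial transfer RNA use, 4 of the selenocysteine route, 58 cytosolic and 42 mitochondrial ribosomal protein genes, and 7880 of all genes, since it calls small folds of genes with many reads. Without the genes on chromosome 3, 0 of 39 genes (0 mitochondrial) were called and the cytosolic median was 0.12. Upstream of the start only, 18.8% of cytosolic promoters held the core. Depth limits PSTK and TARSL2 most.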
